A study of Saccharomyces cerevisiae with 12 samples.

Results

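Loss of the repressor gene OPI1 was compared with wild type in budding yeast (Saccharomyces cerevisiae) of the CEN.PK background. The opi1 strain (labelled opi1 delta) and the wild type (WT) had grown in YPL, a rich lactate medium, to log phase. They were washed and held for 1 h in SL, a minimal lactate medium, before RNA was taken. There were 2 libraries of each genotype, and the comparison covered 6582 of 7126 genes, those with an FPKM (fragments per kilobase of transcript, scaled to the library's total) of at least 1 in at least 2 of all 12 libraries, with OPI1 itself left out. The series also held set2, cho2, cho2set2 and opi1set2 strains in the same background and medium, 2 libraries each. Of these, opi1set2 and set2 were used for the same deletion in cells that lack SET2, the methyltransferase for lysine 36 of histone H3. The cho2 strain, which lacks the first methyltransferase from phosphatidylethanolamine to phosphatidylcholine, was set against opi1 directly. Mating type, markers, the number of clones and whether SL held inositol or choline are not given in the sources used here. Whether the paired libraries of each genotype are separate cultures is not stated, and p-values cover only the spread from library to library, which may be technical.

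Opi1 is held at the endoplasmic reticulum by phosphatidic acid and the membrane protein Scs2. When inositol is taken up and phosphatidic acid is drawn into phosphatidylinositol, Opi1 moves to the nucleus, binds the activator Ino2 and represses its targets. Ino2 and Ino4 bind as a pair to a short promoter element, the inositol-sensitive upstream activating sequence (UAS-INO), whose core letters are CATGTG. The genes under it make inositol, phosphatidylserine, phosphatidylethanolamine and phosphatidylcholine. Phosphatidylcholine made by methylation takes methyl groups from S-adenosylmethionine (SAM), which ties this pathway to methionine and sulfur metabolism.

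The promoters that frame the results are shown as the S288C reference has them in RefSeq (build R64, the same as sacCer3), not as sequenced in CEN.PK. The first set shows elements of the genes that rose with OPI1 loss, and the second those of genes that fell. Positions count upstream from the A of the start codon, each line runs 5′ to 3′, and capitals mark the motif. The INO1 window (chrX:136044-136233, read on the minus strand, -300 to -111) holds the core at -243 and, on the opposite strand, at -178, where it reads CACATG.
INO1: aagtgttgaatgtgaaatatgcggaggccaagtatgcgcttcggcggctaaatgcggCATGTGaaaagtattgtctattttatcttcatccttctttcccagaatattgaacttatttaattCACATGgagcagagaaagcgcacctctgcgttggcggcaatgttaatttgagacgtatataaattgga
In the next lines each site is read in the direction of CATGTG, with 10 or 11 bases around it. They are examples from genes that rose and 3 that were not called in opi1 against WT, chosen with their changes known. The 3 uncalled sites are followed by G or C, as is the rising ITR1 site at -284. They do not stand for all 32 uncalled genes with CATGTGAA. Of 30 such sites followed by A, 18 had a higher gene, and none of the rest is printed. The rising genes are ITR1, CDS1, CHO1, PSD1, OPI3, HNM1, CPT1, INO2, ADO1 and MF(ALPHA)1, and the others are CHO2, STE4 and HSC82. The number is the position of the motif's first base on the gene's strand.
ITR1 -284, chrIV:1445734-1445761, plus strand: atacctaacgCATGTGAAgagaacagaa
ITR1 -221, chrIV:1445671-1445698, minus strand: ttccccaccgCATGTGAAaaaagctcga
CDS1 -162, chrII:297887-297914, minus strand: gatgggatgaCATGTGAAaagtgtaaca
CHO1 -161, chrV:208618-208645, plus strand: tagatgggtcCATGTGAAagctcaaagg
PSD1 -240, chrXIV:317895-317922, plus strand: tggttaccctgCATGTGatatgtgatta
PSD1 -164, chrXIV:317819-317846, minus strand: gcaggcacaagCATGTGgaaaatttgtt
OPI3 -212, chrX:573131-573158, minus strand: caatgagagtgCATGTGgaaagttgcac
OPI3 -148, chrX:573067-573094, plus strand: aaccaacgatgCATGTGtgggtttgcat
HNM1 -269, chrVII:364168-364195, plus strand: aggttctgcgCATGTGAAaaaaaagaga
CPT1 -164, chrXIV:380978-381005, minus strand: gattaaagtgCATGTGAAaattcgcggg
INO2 -144, chrIV:699595-699622, minus strand: gtacaacacaCATGTGAAtttttttcag
ADO1 -173, chrX:623398-623425, minus strand: gcgactcatcCATGTGAAaattatcggc
MF(ALPHA)1 -242, chrXVI:193396-193423, plus strand: aacagtggacCATGTGAAaagatgcatc
CHO2 -267, chrVII:802163-802190, plus strand: attcccttctCATGTGAAgagttcacac
STE4 -259, chrXV:742641-742668, minus strand: ggattcaagtCATGTGAAggatggactt
HSC82 -126, chrXIII:632219-632246, plus strand: aaaagagtggCATGTGAActgcctaccg
The last set comes from genes that fell. MET14 (chrXI:439566-439625, minus strand) and MET16 (chrXVI:877763-877822, minus strand) carry the Cbf1 element CACGTG and the Met31-Met32 core TGTGGC, which on the other strand reads GCCACA, and MET16 also TGACTC, an element of Gcn4. CDC21 (chrXV:467700-467759, minus strand) and POL1 (chrXIV:429867-429926, plus strand) carry ACGCGT, the element of the G1/S factor MBF.
MET14: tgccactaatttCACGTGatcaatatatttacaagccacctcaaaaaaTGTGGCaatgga
MET16: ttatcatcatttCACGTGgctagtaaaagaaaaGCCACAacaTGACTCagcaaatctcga
CDC21: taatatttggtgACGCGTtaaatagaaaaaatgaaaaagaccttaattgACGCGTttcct
POL1: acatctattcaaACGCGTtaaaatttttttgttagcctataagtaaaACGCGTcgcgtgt

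Total counts per library lay between 7383001 and 9461609 over the series, and levels are given as CPM, counts scaled to library size by TMM (a trimmed mean over genes). Before TMM scaling, a gene with 0 counts in a library could stand at no more than 0.317 to 0.406 CPM there, by counting error alone. OPI1 (YHL020C) had 0 counts in both opi1 libraries, against 980 and 1227 in WT. It had 0 and 1 in opi1set2. The library labelled cho2set2 replicate 1 held 50 counts of the deleted SET2 and enters here only through the shared estimate of spread.

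With OPI1 lost, 588 genes rose (8.93% of those tested) and 577 fell (8.77%), which makes 17.7% called at adjusted p < 0.05 by edgeR's quasi-likelihood test. Falls were the larger changes. Of the genes called, 108 were at least 2-fold higher and 206 at least 2-fold lower, and at least 4-fold changes were 19 and 54. In all 1165 called genes the CPM ranges of opi1 and WT did not overlap, but neither did they in 61.3% of all genes tested. Fewer calls were made without opi1 replicate 1 (758), opi1 replicate 2 (448) or WT replicate 1 (508), against 1093 without WT replicate 2. 381 genes were called in all of these, among them 227 of the 314 changed at least 2-fold. On FPKM, which is not TMM-scaled, 28.9% of the calls were higher, against 50.5% on TMM-scaled counts, and the median over all genes lay at -0.14 (log2), against -0.01. INO1 alone took 1.51% and 1.42% of all counts in opi1, against 0.024% and 0.025% in WT.

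Inositol synthesis and uptake changed through 2 of 5 genes, INO1 and ITR1, and both rose. INO1 (YJL153C, chrX:134332-135933, minus strand), the inositol-3-phosphate synthase, had 16265 and 15778 CPM in opi1, against 229.6 and 256 CPM in WT. By FPKM it ranked 13 among all genes in both opi1 libraries, against 1324 and 1181 in WT, and the log2 change was 6.04 ± 0.23 (SE; adjusted p = 4.06e-10). ITR1 (YDR497C, chrIV:1443713-1445467, minus strand), the main inositol transporter, had 2618 and 2672 CPM in opi1, against 425 and 570.3 CPM in WT. Both opi1 libraries lay far above both WT libraries, a log2 change of 2.41 ± 0.18. The second transporter ITR2 (0.08 ± 0.15, adjusted p = 0.770) and the inositol monophosphatases INM1 (-0.46 ± 0.23, 0.192) and INM2 (0.14 ± 0.15, 0.566) did not pass the test.

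The path from CDP-diacylglycerol to phosphatidylcholine had 4 of 7 genes higher and 0 lower, with a median log2 change of 1.81 against -0.01 over all genes. CDS1 (YBR029C, chrII:296369-297742, minus strand), the CDP-diacylglycerol synthase, had 389.6 and 421 CPM in opi1, against 77.6 and 77.1 CPM in WT. CHO1 (YER026C, chrV:207644-208474, minus strand), the phosphatidylserine synthase, had 1343 and 1496 CPM in opi1, against 243 and 242 CPM in WT. The log2 changes were 2.39 ± 0.15 for CDS1 (adjusted p = 8.68e-08) and 2.55 ± 0.13 for CHO1 (9.93e-09), and each WT pair lay close together. PSD1, the mitochondrial phosphatidylserine decarboxylase, had 147 and 169 CPM in opi1, against 47.0 and 43.4 CPM in WT (1.81 ± 0.15, adjusted p = 1.34e-06). PSD1 overlaps YNL170W on the other strand, and without a stated strand setting their counts cannot be told apart. The second decarboxylase PSD2 stood at 115 and 112 CPM in opi1, against 98.2 and 105 CPM in WT, with overlapping groups (0.16 ± 0.15, adjusted p = 0.513).

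The pair of phosphatidylethanolamine methyltransferases did not move alike. OPI3 (YJR073C, chrX:572315-572935, minus strand), which adds the later methyl groups, had 1667 and 1636 CPM in opi1, against 365 and 421 CPM in WT (2.07 ± 0.15, adjusted p = 4.33e-07). CHO2 (YGR157W, chrVII:802440-805049, plus strand), which adds the first, had 452 and 504 CPM in opi1, against 387 and 355 CPM in WT. The CHO2 libraries of opi1 lay above those of WT but by little, with a log2 change of 0.37 ± 0.15 that missed the threshold (adjusted p = 0.102). CHO2 carries the longer motif CATGTGAA at -267, as the sites above show, whereas OPI3 carries only the core. The mitochondrial CDP-diacylglycerol synthase TAM41 was not called (0.32 ± 0.18, adjusted p = 0.255).

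**Figure D1:**
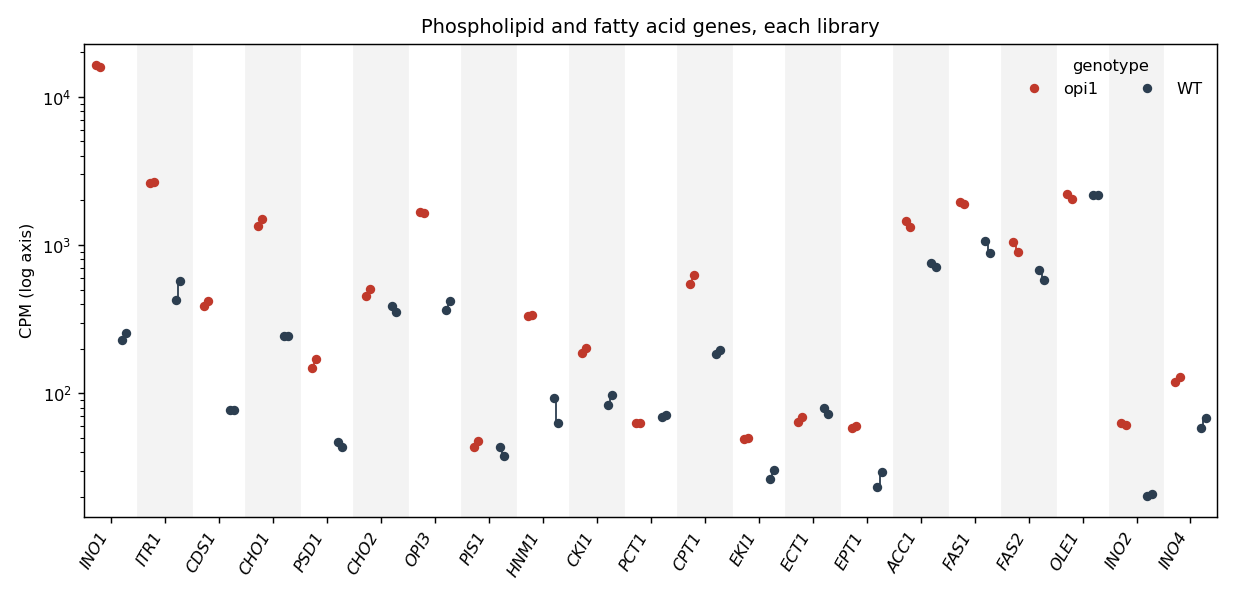
CPM on a log axis of phospholipid, fatty acid and regulator genes in each library, opi1 (red) left of WT (dark blue), with a line joining the 2 libraries of a genotype. INO1 stands highest in both opi1 libraries, while PIS1, PCT1, ECT1 and OLE1 lie at like levels in both genotypes.

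The Kennedy pathway, which makes the same lipids from choline and ethanolamine, had 5 of 7 genes higher and 0 lower. HNM1 (YGL077C, chrVII:362225-363916, minus strand), the transporter of choline and ethanolamine, had 329 and 338 CPM in opi1, against 92.4 and 63.4 CPM in WT. Its log2 change was 2.10 ± 0.19 (adjusted p = 3.42e-06), although the WT libraries lay further apart than those of opi1. The kinases that start the 2 branches both rose, CKI1 for choline by 1.10 ± 0.13 and EKI1 for ethanolamine by 0.80 ± 0.15 (adjusted p = 4.26e-05 and 0.00174). CKI1 had 187 and 202 CPM in opi1, against 83.5 and 97.3 CPM in WT, and EKI1 had 49.2 and 50.3 CPM in opi1, against 26.6 and 30.3 CPM in WT. The transferases that end the branches rose too. CPT1, the cholinephosphotransferase, had 547 and 624 CPM in opi1, against 184 and 194 CPM in WT (1.63 ± 0.15, adjusted p = 4.08e-06), and EPT1, its ethanolamine counterpart, had 58.1 and 60.3 CPM in opi1, against 23.2 and 29.3 CPM in WT (1.17 ± 0.17, 2.45e-04). The middle steps were not called. PCT1 (-0.16 ± 0.12, adjusted p = 0.427) and ECT1 (-0.19 ± 0.13, 0.353), which make CDP-choline and CDP-ethanolamine, stood a little lower in opi1.

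Phosphatidylinositol and cardiolipin synthesis had 0 of 6 genes called by edgeR, limma or DESeq2, and 4 with an unadjusted p under 0.05 by edgeR. PIS1, the phosphatidylinositol synthase that uses the inositol made by INO1, had 43.6 and 47.9 CPM in opi1, against 43.1 and 37.7 CPM in WT (0.18 ± 0.16, adjusted p = 0.485). The other 5, PGS1, GEP4, CRD1, TAZ1 and CLD1, had log2 changes between -0.11 ± 0.14 (GEP4) and 0.48 ± 0.16 (PGS1).

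Fatty acid synthesis, elongation and activation had 9 of 18 genes higher and 1 lower. ACC1, the acetyl-CoA carboxylase that commits carbon to fatty acids, had 1459 and 1319.9 CPM in opi1, against 758 and 707 CPM in WT (0.92 ± 0.13, adjusted p = 1.45e-04). FAS1, a fatty acid synthase subunit, had 1941 and 1904 CPM in opi1, against 1057 and 882 CPM in WT (0.99 ± 0.15, 3.05e-04). Both rose in each library, by less than INO1, CDS1, CHO1 or OPI3. FAS2, the partner subunit, changed by 0.63 ± 0.14 (adjusted p = 0.00522; adjusted p = 0.0756 without opi1 replicate 1). Acyl-CoA handling rose through FAA1 (0.89 ± 0.17) and FAA4 (0.67 ± 0.13), which activate fatty acids, and ACB1 (0.81 ± 0.14), which binds acyl-CoA. ELO3, the elongase for the longest chains, fell (-1.17 ± 0.20), with 9.81 and 13.9 CPM in opi1, against 27.9 and 25.7 CPM in WT, and the desaturase OLE1 was not called (-0.03 ± 0.15, adjusted p = 0.929). The count of higher genes was 5 without opi1 replicate 1 and 6 without opi1 replicate 2 or WT replicate 1.

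Phosphatidate and triacylglycerol genes had 4 of 21 higher and 1 lower. NEM1, the catalytic subunit of the phosphatase that activates the phosphatidate phosphatase Pah1, rose by 0.83 ± 0.12 (adjusted p = 1.83e-04). It had 114 and 126 CPM in opi1, against 66.6 and 68.2 CPM in WT. YEH1, a steryl ester hydrolase, had 6.08 and 4.55 CPM in opi1, against 25.6 and 16.2 CPM in WT, the largest fall of the list (-1.98 ± 0.31, 4.01e-04). PAH1 (-0.03 ± 0.14, adjusted p = 0.917) and DGK1 (-0.14 ± 0.11, 0.438), the kinase that works against it, were not called, although both are described as UAS-INO genes. Without opi1 replicate 1 the counts were 3 higher and 2 lower, without opi1 replicate 2 or WT replicate 1 they were 1 and 1, without WT replicate 2 they were 6 and 1, and on FPKM 2 and 1. Of 10 genes of phospholipid turnover, 4 rose and 2 fell, and GPC1, the acyltransferase that recycles glycerophosphocholine, was the member called in every leave-out (1.05 ± 0.13, adjusted p = 5.38e-05), with 250.1 and 262 CPM in opi1, against 120.4 and 127 CPM in WT. The turnover counts were 1 and 0 without WT replicate 1, 2 and 1 without either opi1 replicate, and 2 and 2 on FPKM.

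Among 18 regulators of these genes, 4 rose and 2 fell. INO2 (YDR123C, chrIV:698554-699468, minus strand), the activator that Opi1 binds, had 63.1 and 61.4 CPM in opi1, against 20.4 and 20.9 CPM in WT (1.59 ± 0.22, adjusted p = 1.58e-04), and its partner INO4 had 119.9 and 128 CPM in opi1, against 58.2 and 68.5 CPM in WT (0.97 ± 0.15, 4.48e-04). Both genes stood higher in each opi1 library than in any WT library, and both carry CATGTGAA in their promoters. SCS2, the membrane anchor of Opi1, was not called (-0.35 ± 0.14, adjusted p = 0.0981). The corepressor genes SIN3 (-0.19 ± 0.13), RPD3 (-0.14 ± 0.13) and UME6 (0.53 ± 0.21) did not pass the test, and CYC8, which overlaps YBR113W, was lower (-0.67 ± 0.16, adjusted p = 0.00837; adjusted p = 0.0797 without opi1 replicate 2 and 0.0506 without WT replicate 1). Without WT replicate 1 or opi1 replicate 2 the list had 2 higher and 0 lower genes, without opi1 replicate 1 and on FPKM 2 of each, and without WT replicate 2 it had 4 and 1.

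Taken as 1 list, the 19 UAS-INO genes had 15 higher and 0 lower, against 8.93% and 8.77% of all genes. The median log2 change was 1.17, and the 4 that did not pass were CHO2, PIS1, DGK1 and PAH1. Within 300 bases of the start codon, 13 of the 19 held the core CATGTG and 11 held CATGTGAA. PIS1, DGK1 and PAH1 lacked the core there, as did EPT1, ACC1 and FAS1, which rose. INO4, which carries CATGTGAA, is not in this list. The count was 14 without opi1 replicate 1 and 15 in each other leave-out. This list was known from earlier work on these libraries and is no independent evidence of its direction.

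**Figure D2:**
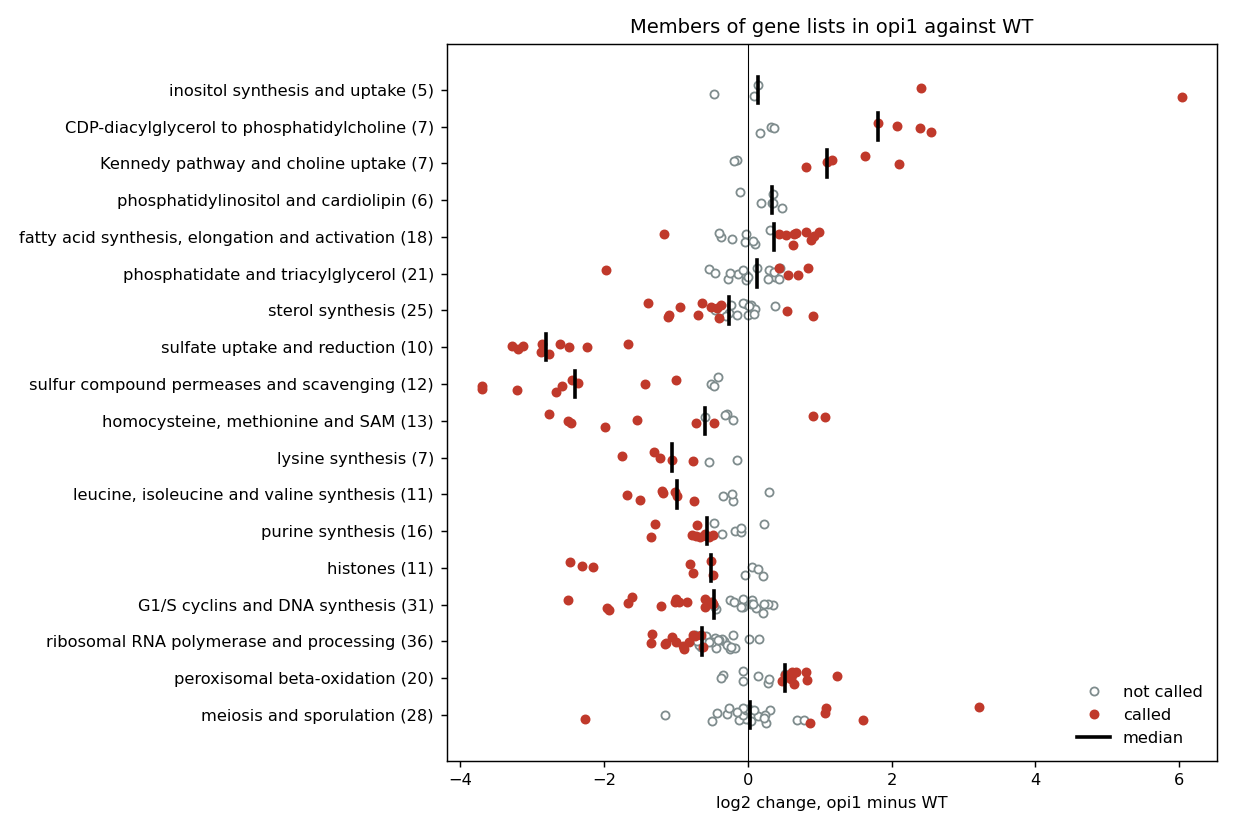
Log2 change (opi1 minus WT) of each gene in 18 lists, the number tested in parentheses, with called genes filled, other genes open and a black bar at the list's median. Sulfate uptake and reduction lies wholly below 0 with all 10 genes called, and the median of the path from CDP-diacylglycerol to phosphatidylcholine lies at 1.81.

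The core CATGTG, searched on both strands of the 300 bases before the start codon, was in 28.7% of the genes that rose at least 2-fold, in 12.1% of all genes that rose and in 6.41% of those that fell, against 7.58% of all 6570 windows. The longer CATGTGAA was in 15.7%, 4.42% and 0% of the same groups, against 0.883% of all windows. Of the 58 genes with CATGTGAA, 26 were higher (44.8%), 0 were lower and 32 were not called, and 6 of the 54 sites lay upstream of 2 genes. The base after CATGTGAA differed between the sites. At 30 sites it was A, and 18 of these had a higher gene; it was T at 7 sites, of which 5 had one, G at 9 with 2, and C at 8 with 0. That split was noticed in these data and is a description of the letters. ADO1, the adenosine kinase, carries CATGTGAA at -173 and YEL073C, a gene of unknown function, at -110. YEL073C had 92.1 and 128 CPM in opi1, against 21.4 and 33.1 CPM in WT (2.01 ± 0.19, adjusted p = 6.60e-06).

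Genes next to the deletion were read separately. SPO11 (YHL022C, chrVIII:62961-64157, minus strand), which encodes the nuclease of meiotic double-strand breaks, lies 2085 bases from OPI1 and had 154 and 179 CPM in opi1, against 17.7 and 18.2 CPM in WT (3.22 ± 0.15, adjusted p = 4.83e-09). AIM17, the nearest gene on that side at 383 bases, was lower, with 324 and 362 CPM in opi1, against 501 and 644 CPM in WT (-0.74 ± 0.18, 0.0103; adjusted p = 0.0835 without opi1 replicate 1 and 0.0505 without opi1 replicate 2 and 0.0752 without WT replicate 2). YHL017W, on the other side, was higher (0.64 ± 0.16, adjusted p = 0.0125; adjusted p = 0.157 without opi1 replicate 2 and 0.0834 without WT replicate 2). Nearer to OPI1 on the side of YHL017W, YHL019W-A (255 bases), APM2 (275 bases) and MCO14 (2252 bases) were not called (adjusted p = 0.557, 0.390 and 0.790). Nor were RIM4, NPR3 and DUR3. For SPO11, AIM17 and YHL017W the part of the deletion itself cannot be told apart from loss of Opi1 in this strain.

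Sulfur genes fell together. All 10 genes of sulfate uptake and reduction fell, and all 10 did so whichever library was left out, with a median of -2.81. SUL1 (YBR294W, chrII:789235-791814, plus strand), a sulfate permease, had 363 and 360.1 CPM in opi1, against 2150.4 and 2758 CPM in WT (-2.76 ± 0.24, adjusted p = 2.21e-06). MET14 (YKL001C, chrXI:438777-439385, minus strand), the adenylylsulfate kinase, had 129.7 and 114 CPM in opi1, against 1044 and 1081 CPM in WT, and MET16 (YPR167C, chrXVI:876847-877632, minus strand), the reductase of the next step, had 65.2 and 72.2 CPM in opi1, against 489 and 511 CPM in WT. In both the opi1 libraries stood below WT by a wide gap (-3.12 ± 0.36 and -2.86 ± 0.34, adjusted p = 3.50e-05 and 4.90e-05). The sulfite reductase subunits MET5 (-2.62 ± 0.30) and MET10 (-2.49 ± 0.27) and MET8 (-2.88 ± 0.31), which helps to make their sirohaem, fell with them. The smallest fall was that of SUL2, the second permease (-1.67 ± 0.33, adjusted p = 0.00266).

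Of 12 permeases and scavenging enzymes for sulfur compounds, 9 fell and 0 rose. YCT1, a cysteine transporter, had 10.9 and 10.8 CPM in opi1, against 68.3 and 70.4 CPM in WT (-2.68 ± 0.20), and JLP1, a sulfonate dioxygenase, had 21.3 and 17.7 CPM in opi1, against 106 and 107 CPM in WT (-2.45 ± 0.20). MHT1, which makes methionine from S-methylmethionine, had 21.8 and 27.1 CPM in opi1, against 175 and 118 CPM in WT (-2.58 ± 0.26, adjusted p = 1.02e-05). The methionine permeases MUP1 (-3.21 ± 0.35) and MUP3 (-1.43 ± 0.17) differed in size of fall. OPT1, SOA1 and SAM4 were not called.

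In the SAM cycle the directions split. Genes that make methionine and SAM fell. MET6, the methionine synthase, had 2288 and 2035 CPM in opi1, against 5617 and 6942 CPM in WT (-1.54 ± 0.27, adjusted p = 0.00116), and SAM1, a SAM synthetase, had 82.3 and 61.3 CPM in opi1, against 498 and 480.3 CPM in WT (-2.77 ± 0.30, 1.94e-05). The near-identical SAM2 had 1214 and 1074 CPM in opi1, against 1307 and 1541 CPM in WT and was not called (-0.32 ± 0.27, adjusted p = 0.472). How reads shared by SAM1 and SAM2 were counted is not given. Genes that clear the product of methylation rose. SAH1, which splits S-adenosylhomocysteine, had 592 and 589 CPM in opi1, against 292 and 271 CPM in WT (1.07 ± 0.16, 3.78e-04), and ADO1, which then phosphorylates the adenosine, had 386 and 395 CPM in opi1, against 226 and 191 CPM in WT (0.90 ± 0.13, 2.50e-04). Of the 13 genes of this list 2 rose and 7 fell.

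Transsulfuration and glutathione genes fell in 6 of 11 cases and rose in 0. CYS3, the cystathionine gamma-lyase, had 105 and 65.6 CPM in opi1, against 648 and 846 CPM in WT (-3.13 ± 0.30), and STR3, the beta-lyase of the reverse path, had 95.4 and 79.4 CPM in opi1, against 555 and 350.0 CPM in WT (-2.37 ± 0.33). GSH1, which starts glutathione synthesis, fell (-1.35 ± 0.24) and GSH2, which ends it, was not called (-0.03 ± 0.11, adjusted p = 0.905). Of the 6 regulators of sulfur genes, the activator MET4 itself was not called, with 145 and 135 CPM in opi1, against 123 and 149.6 CPM in WT (0.04 ± 0.14, adjusted p = 0.888). Its DNA-binding partner MET32 fell, with 66.7 and 77.9 CPM in opi1, against 276 and 308 CPM in WT (-2.01 ± 0.26), while the other partner MET31 (-0.41 ± 0.25, 0.302) and CBF1 (-0.22 ± 0.15, 0.368) were not called. The ubiquitin ligase subunit MET30, which restrains Met4, fell (-0.86 ± 0.16, adjusted p = 0.00161).

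**Figure D3:**
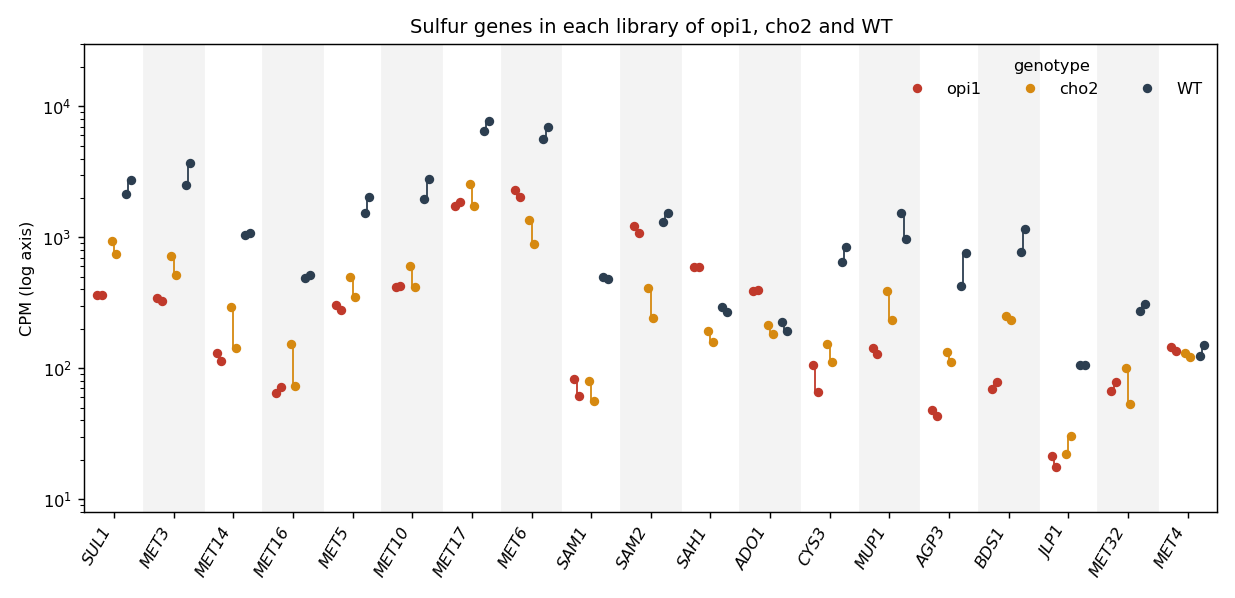
CPM on a log axis of sulfur genes in each library of opi1 (red), cho2 (orange) and WT (dark blue), with a line joining the 2 libraries of a genotype. In both mutants the sulfate, methionine and permease genes lie under WT, whereas SAH1 and ADO1 lie above WT in opi1, and MET4 lies at like levels in all 3 genotypes.

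The fall of the sulfur genes was set beside that in cho2, the other phospholipid mutant. Both are read against the same WT libraries, so only the direct difference between the mutants was tested. MET14 had 129.7 and 114 CPM in opi1, 296 and 142 CPM in cho2 and 1044 and 1081 CPM in WT. Over sulfate uptake and reduction the median log2 change was -2.81 in opi1 and -2.11 in cho2, and 1 of the 10 genes, SUL1, was lower in opi1 than in cho2 directly (-1.22 ± 0.23, adjusted p = 0.00344, and 0.0542 without opi1 replicate 2), while 4 were without cho2 replicate 2 and 3 without the library labelled cho2set2 replicate 1. Of the 12 permease and scavenging genes 5 were lower in opi1 than in cho2 and 0 higher, but the 5 were 2 without opi1 replicate 1, 1 without opi1 replicate 2, and 3 without either cho2 replicate or on FPKM. BDS1, called in all 4 of these leave-outs, an aryl sulfatase, had 69.7 and 77.9 CPM in opi1, 251 and 233 CPM in cho2 and 769 and 1157 CPM in WT (-1.71 ± 0.23 for opi1 minus cho2, adjusted p = 3.29e-04). In the SAM cycle 4 genes were higher in opi1 than in cho2. SAM2 had 1214 and 1074 CPM in opi1 and 409 and 243 CPM in cho2 (1.81 ± 0.28, adjusted p = 8.39e-04), SAH1 had 592 and 589 CPM in opi1 and 193 and 159 CPM in cho2 (1.75 ± 0.17, 1.32e-05), and ADO1 had 386 and 395 CPM in opi1 and 215 and 181 CPM in cho2 (0.98 ± 0.13, 3.06e-04). The fourth, MET6, lost its call in 3 of 4 leave-outs, with an adjusted p of up to 0.248. Of the UAS-INO genes other than CHO2, which cho2 lacks, 14 of 18 were higher in opi1 than in cho2 and 0 lower, and 11 to 12 with 1 library of either group left out. Over all genes 8.81% differed between these mutants, 4.28% higher, the deleted CHO2 included, and 4.53% lower in opi1. The total of 580 was 339 without opi1 replicate 1, 167 without opi1 replicate 2, 217 without cho2 replicate 1 and 354 without cho2 replicate 2.

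The elements of the printed MET14 and MET16 windows were more frequent before genes that fell. Cbf1's CACGTG was in 6.41% of them, against 3.38% of all windows, and the Met31-Met32 core TGTGGC in 12.3%, against 8.13%. Gcn4's TGACTC was in 12% and 7.98%. A match describes the letters and does not show a bound site.

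Other amino acid pathways fell in part. Lysine synthesis had 5 of 7 genes lower and 0 higher, led by LYS20, a homocitrate synthase, with 69.9 and 59.7 CPM in opi1, against 297 and 138 CPM in WT (-1.74 ± 0.26, adjusted p = 3.44e-04). Its near-identical copy LYS21 was not called (-0.15 ± 0.16, adjusted p = 0.575), and how their shared reads were counted is not given. Without WT replicate 1 the lysine count was 3. Leucine, isoleucine and valine synthesis had 7 of 11 lower, among them ILV5, the acetohydroxyacid reductoisomerase, with 439 and 363 CPM in opi1, against 1365 and 906 CPM in WT (-1.50 ± 0.27, 0.00117), and LEU2 (-1.19 ± 0.23); without opi1 replicate 2 the count was 4. Directly, 5 of 7 lysine and 4 of 11 branched-chain genes were lower in opi1 than in cho2. The lysine count was 3 without either opi1 replicate or cho2 replicate 1, and the branched-chain count was 1 without opi1 replicate 2 or cho2 replicate 1. ARG4, the argininosuccinate lyase, went the other way from its pathway, with 556 and 475 CPM in opi1, against 234 and 152 CPM in WT (1.41 ± 0.19, adjusted p = 1.32e-04) while 5 of 9 arginine genes fell; the 5 were 2 without opi1 replicate 1 or 2 and 1 without WT replicate 1.

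Serine, glycine and one-carbon genes had 6 of 12 lower and 0 higher. The 6 rested in part on single libraries. The median log2 change was -0.57, and -0.46 to -0.78 with 1 opi1 or WT library left out. SER33, the 3-phosphoglycerate dehydrogenase, had 137 and 127 CPM in opi1, against 809.8 and 906 CPM in WT (-2.70 ± 0.22, adjusted p = 1.34e-06), and its paralog SER3 was not called (-0.08 ± 0.21, 0.854). SHM2, the cytosolic serine hydroxymethyltransferase, had 236 and 198 CPM in opi1, against 1073 and 844 CPM in WT (-2.14 ± 0.16), while the mitochondrial SHM1 was not called (0.03 ± 0.13, adjusted p = 0.903). Glutamate synthesis fell through GDH1, the NADPH-dependent glutamate dehydrogenase, with 48.8 and 57.0 CPM in opi1, against 259 and 187 CPM in WT (-2.07 ± 0.19, 4.49e-06). Purine synthesis had 10 of 16 lower, but 6 without opi1 replicate 1 and 2 without either opi1 replicate 2 or WT replicate 1. ADE3 (-1.29 ± 0.16) of the one-carbon supply and ADE12 (-0.72 ± 0.12), which leads from IMP towards AMP, were called in every leave-out.

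Cell cycle genes fell in 2 groups. Of 11 histone genes 7 fell and 0 rose, and copies of the same histone differed. The 7 rested in part on single libraries. The median log2 change was -0.51, and -0.45 to -0.7 with 1 opi1 or WT library left out. HTA2, an H2A gene, had 46.4 and 44.0 CPM in opi1, against 238 and 263 CPM in WT (-2.47 ± 0.16, adjusted p = 1.50e-07), whereas the other copy HTA1 had 778 and 841 CPM in opi1, against 735 and 827 CPM in WT and was not called (0.05 ± 0.15, 0.863). HTB2, which shares its promoter with HTA2, fell (-2.31 ± 0.15), and HTB1, beside HTA1, was not called (-0.05 ± 0.14, adjusted p = 0.869). HHF2, an H4 gene, had 104 and 95.7 CPM in opi1, against 414 and 476 CPM in WT (-2.16 ± 0.14), and its copy HHF1 had 643 and 680.3 CPM in opi1, against 901 and 983 CPM in WT (-0.51 ± 0.14, adjusted p = 0.0227; adjusted p = 0.132 without opi1 replicate 1 and 0.109 without opi1 replicate 2 and 0.0552 without WT replicate 1 and 0.0911 without WT replicate 2). HHT2 (-0.81 ± 0.13) and HHT1 (-0.76 ± 0.14), the H3 copies, fell to a like extent. The copies are near-identical in their coding sequence, so reads may have been split between them.

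Of 31 genes of the G1/S transition and DNA synthesis 14 fell and 0 rose, and 9 without opi1 replicate 2. PCL1, a G1 cyclin outside that list, was among the 20 largest falls and had 10.2 and 7.92 CPM in opi1, against 80.3 and 76.9 CPM in WT (-3.12 ± 0.22, adjusted p = 2.70e-07). CLB6, an S-phase cyclin, had 1.52 and 1.56 CPM in opi1, against 5.74 and 6.30 CPM in WT (-1.96 ± 0.33, 7.72e-04). RNR1, the large subunit of ribonucleotide reductase, had 22.1 and 24.3 CPM in opi1, against 131 and 132 CPM in WT (-2.50 ± 0.15, 5.08e-08). For all of these the opi1 libraries were the lower pair. RNR3, its paralog, was not called (0.05 ± 0.18, adjusted p = 0.887). CDC21, the thymidylate synthase, had 11.6 and 7.66 CPM in opi1, against 40.4 and 33.1 CPM in WT (-1.93 ± 0.21), POL1, the catalytic subunit of DNA polymerase alpha, had 13.9 and 15.2 CPM in opi1, against 37.1 and 30.4 CPM in WT (-1.21 ± 0.18), and CDC45, a part of the replicative helicase, had 7.73 and 6.62 CPM in opi1, against 23.9 and 21.9 CPM in WT (-1.67 ± 0.23). CDC21 overlaps YOR073W-A on the other strand. The factors themselves, SWI4 (0.04 ± 0.15), SWI6 (0.11 ± 0.14) and MBP1 (-0.07 ± 0.16), and most of the MCM helicase genes (MCM2, MCM4, MCM5, MCM6 and MCM7, but not MCM3) were not called. MBF's ACGCGT was in 9.01% of the genes that fell, against 3.36% of all windows and 2.38% of the genes that rose. Against cho2 directly, 10 of the 31 genes and 3 of the 11 histone genes were lower in opi1 and 0 higher, and the 10 were 5 without opi1 replicate 1 and 4 without opi1 replicate 2. Growth rate and cell cycle stage of the cultures are not given in the sources used here, and their part in these values was not tested.

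**Figure D4:**
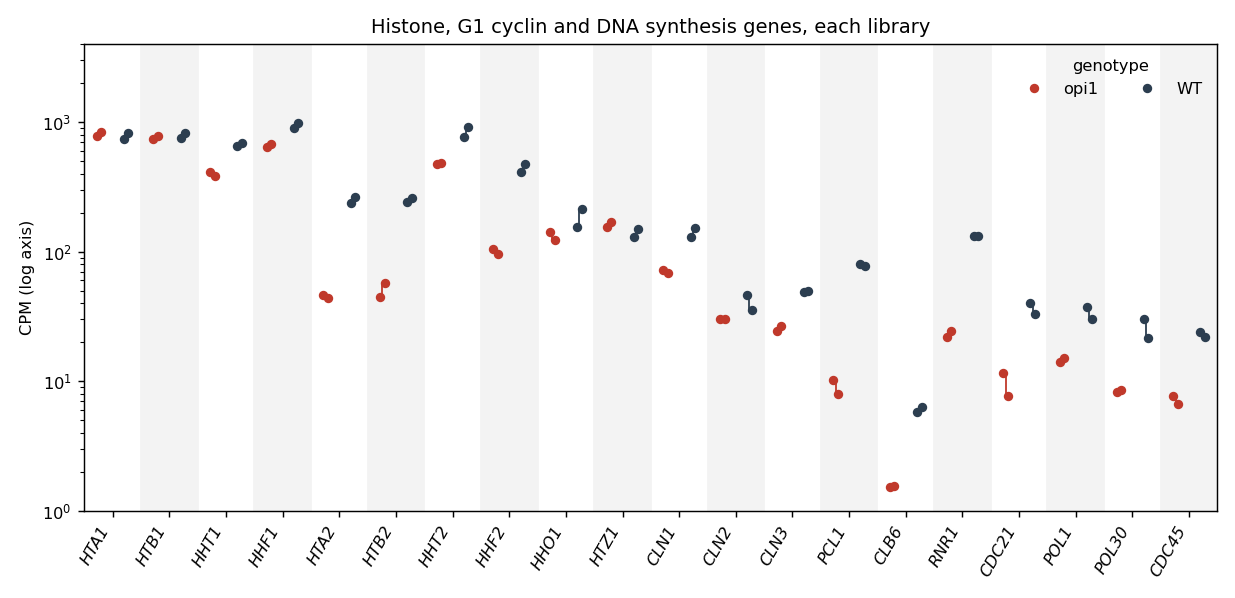
CPM on a log axis of histone, G1 cyclin and DNA synthesis genes in each library, opi1 (red) left of WT (dark blue), with a line joining the 2 libraries of a genotype. HTA2, HTB2 and HHF2 lie under their WT values while HTA1 and HTB1 overlap WT, and RNR1, CLB6 and PCL1 lie well under WT.

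Ribosomal RNA polymerase and processing genes had 13 of 36 lower and 0 higher, a count that rested on single libraries. It was 5 without opi1 replicate 1, 2 without opi1 replicate 2, 0 without WT replicate 1 and 22 without WT replicate 2. DRS1, a helicase of ribosome assembly, had 5.66 and 3.12 CPM in opi1, against 13.1 and 9.19 CPM in WT (-1.35 ± 0.32, adjusted p = 0.00939; adjusted p = 0.137 without opi1 replicate 2 and 0.0953 without WT replicate 1). No member was called in all 4 leave-outs.

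Mating genes were also read, since the labels omit the mating type of the strains. They are given here for opi1 and WT only, and no mating type was assigned from them. STE3 stood far lower in set2 and opi1set2 than in these strains, as given further below. STE2, the receptor for alpha-factor made by MATa cells, had 87.3 and 83.9 CPM in opi1, against 53.6 and 51.7 CPM in WT (0.70 ± 0.14, adjusted p = 0.00246), and STE6, the exporter of a-factor, had 51.0 and 44.2 CPM in opi1, against 50.5 and 45.5 CPM in WT (-0.01 ± 0.17, 0.977). The a-factor genes MFA1 (81.5 and 89.9 CPM in opi1 and 63.5 and 59.2 CPM in WT) and MFA2 (134 and 115 CPM in opi1 and 69.8 and 69.7 CPM in WT) and the protease gene BAR1 (31.5 and 37.0 CPM in opi1 and 32.1 and 29.7 CPM in WT) were expressed in all 4 libraries, as was AGA2 (49.3 and 48.2 CPM in opi1 and 31.3 and 29.2 CPM in WT). Of the alpha-specific genes, MF(ALPHA)1, which encodes alpha-factor, had 32.5 and 39.2 CPM in opi1, against 1.17 and 1.18 CPM in WT (4.92 ± 0.37, adjusted p = 4.33e-07). It carries CATGTGAA at -242, followed by A. The alpha-specific SAG1, given below and not called, carries CATGTGAA too, at -156. MF(ALPHA)2, the other alpha-factor gene, had 3.87 and 3.77 CPM in opi1 and 7.73 and 6.84 CPM in WT (-0.93 ± 0.29, adjusted p = 0.0380; adjusted p = 0.127 without opi1 replicate 1 and 0.193 without opi1 replicate 2 and 0.181 without WT replicate 1 and 0.0629 without WT replicate 2). STE3, the receptor of alpha cells, had 25.8 and 26.4 CPM in opi1 and 14.5 and 15.3 CPM in WT and overlaps YKL177W, and the agglutinin SAG1 had 58.1 and 53.0 CPM in opi1 and 48.4 and 59.1 CPM in WT, and neither was called (adjusted p = 0.0979 and 0.901). In the pathway shared by both mating types STE4 (-0.10 ± 0.14), STE12 (-0.33 ± 0.22) and FUS3 (-0.18 ± 0.13) were not called, whereas the scaffold gene STE5 was lower (-0.71 ± 0.16, adjusted p = 0.00686; adjusted p = 0.0791 without opi1 replicate 2 and 0.0944 without WT replicate 1) and KAR4, a transcription factor of mating, was higher (0.73 ± 0.13, adjusted p = 0.00141). Over the 25 mating genes 6 rose and 3 fell, against 3 and 0 without opi1 replicate 2, 4 and 0 without WT replicate 1, 4 and 1 without opi1 replicate 1 or WT replicate 2 and 4 and 4 on FPKM.

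Among 28 meiosis and sporulation genes 5 rose and 1 fell, with 3 and 1 without opi1 replicate 2 or WT replicate 1 and 4 and 2 without WT replicate 2. IME1, the activator that starts meiosis, had 89.8 and 78.3 CPM in opi1, against 27.3 and 28.0 CPM in WT (1.60 ± 0.32, adjusted p = 0.00276), but its targets IME2 (0.04 ± 0.19, 0.926) and NDT80 (0.02 ± 0.21, 0.976) were not called. DMC1, the meiotic strand exchange protein, had 62.3 and 63.2 CPM in opi1, against 26.6 and 33.1 CPM in WT (1.07 ± 0.21), and SPO16 had 2.21 and 2.08 CPM in opi1, against 11.9 and 8.87 CPM in WT (-2.27 ± 0.39). SPO11 is the gene beside OPI1 described above.

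Of 18 genes of lactate, acetate and gluconeogenesis 4 rose and 2 fell, and 2 of each were called without opi1 replicate 2 or WT replicate 1. ADY2 (YCR010C, chrIII:132273-133124, minus strand), an acetate transporter, had 10418 and 12331 CPM in opi1, against 2326 and 3015 CPM in WT (2.09 ± 0.18, adjusted p = 2.21e-06). The lactate dehydrogenases that feed on the carbon source of the medium, CYB2 (0.36 ± 0.15, 0.107) and DLD1 (0.11 ± 0.15, 0.688), were not called, and the lactate permease JEN1 had 7658 and 9129 CPM in opi1, against 4584 and 5428 CPM in WT (0.75 ± 0.16, adjusted p = 0.00461; adjusted p = 0.0908 without opi1 replicate 2 and 0.0690 without WT replicate 1). Gluconeogenesis and the glyoxylate cycle showed no call at PCK1 (-0.15 ± 0.18), FBP1 (0.19 ± 0.13), ICL1 (-0.19 ± 0.14) or MLS1 (-0.08 ± 0.16), whereas PYC1, a pyruvate carboxylase, fell (-0.86 ± 0.14), and so did ALD6, the cytosolic acetaldehyde dehydrogenase (-0.92 ± 0.14). In glycolysis and fermentation 2 of 22 genes rose and 7 fell, with 1 rise without opi1 replicate 2 or either WT replicate, and 1 rise and 10 falls on FPKM. The pyruvate decarboxylases split, with PDC5 higher (1.23 ± 0.19), PDC1 at 464 and 438 CPM in opi1, against 1184 and 1090.2 CPM in WT (-1.33 ± 0.19) and PDC6 at 96.1 and 86.0 CPM in opi1, against 1007 and 1293 CPM in WT (-3.66 ± 0.26). These genes resemble each other in sequence, and so do TDH2 (-1.69 ± 0.20) and TDH3 (-0.02 ± 0.18). In respiration CYC1, the main cytochrome c gene, had 135 and 124 CPM in opi1, against 447 and 265 CPM in WT (-1.46 ± 0.21, adjusted p = 2.04e-04), and ATP20 (-0.98 ± 0.17) and QCR2 (-0.70 ± 0.13) fell too, in a list with 7 of 34 lower and 1 higher. That count was 4 and 0 without opi1 replicate 1, 3 and 0 without opi1 replicate 2 or WT replicate 1, and 11 lower and 1 higher without WT replicate 2.

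Peroxisomal beta-oxidation had 12 of 20 genes higher and 0 lower, by small amounts (median log2 change 0.52). ECI1, an enoyl-CoA isomerase, had 1145 and 1349.9 CPM in opi1, against 497 and 563 CPM in WT (1.23 ± 0.14, adjusted p = 3.84e-05), and IDP3, the peroxisomal isocitrate dehydrogenase, had 879 and 985 CPM in opi1, against 465 and 586 CPM in WT (0.83 ± 0.15, 0.00130). Only ECI1, IDP3 and DCI1 (0.81 ± 0.14) were called in all leave-outs, and the count was 3 without opi1 replicate 2 or WT replicate 1, 9 without opi1 replicate 1 and 6 on FPKM. Sterol synthesis had 2 of 25 higher and 10 lower. The late enzymes ERG3 (285 and 256 CPM in opi1, against 707 and 707 CPM in WT; -1.39 ± 0.14), ERG5 (224 and 215 CPM in opi1, against 414 and 432 CPM in WT; -0.95 ± 0.15) and ERG4 (40.6 and 43.0 CPM in opi1, against 89.3 and 89.8 CPM in WT; -1.10 ± 0.15) fell together with ERG11, the lanosterol demethylase (-1.11 ± 0.16). HMG2, a copy of the rate-setting reductase, rose by 0.90 ± 0.12, while HMG1 was not called (0.05 ± 0.16, adjusted p = 0.881). The 10 falls were 6 without opi1 replicate 1, opi1 replicate 2 or WT replicate 1, and the 2 rises were 1 without either opi1 replicate or WT replicate 2 and on FPKM. In sphingolipid synthesis 3 of 23 rose and 2 fell, but 2 and 0 without opi1 replicate 1, 1 and 0 without opi1 replicate 2 or WT replicate 1, 3 and 1 without WT replicate 2 and 1 and 2 on FPKM, with TSC3, the small subunit of serine palmitoyltransferase, highest (0.95 ± 0.14, adjusted p = 2.48e-04). The unfolded protein response, which lipid imbalance in the endoplasmic reticulum can switch on, had 3 of 17 genes higher and 0 lower. Its chaperone KAR2 changed by 0.37 ± 0.12 (adjusted p = 0.0490; adjusted p = 0.140 without opi1 replicate 1 and 0.295 without opi1 replicate 2 and 0.229 without WT replicate 1 and 0.107 without WT replicate 2). The count was 0 without either opi1 replicate or WT replicate 1, 1 without WT replicate 2, and on FPKM it was 0 higher and 1 lower.

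The remaining lists held few calls in number, to be read against 8.93% of all genes higher and 8.77% lower. Some shares lay above these, most of all the falls in the short histidine and glutamate lists. Higher and lower calls numbered 1 and 2 of 16 in phosphoinositide metabolism, 1 and 2 of 17 in the TCA cycle, 2 and 0 of 20 among heat shock proteins and 0 and 2 of 24 under nitrogen catabolite repression. In amino acid and nucleotide synthesis they numbered 0 and 3 of 7 for histidine, 1 and 1 of 14 for aromatic amino acids, 0 and 3 of 5 for glutamate and glutamine, and 1 and 2 of 13 for pyrimidines. These counts rest in part on single libraries. Without opi1 replicate 2 the phosphoinositide list had 0 and 0 and the lists of nitrogen catabolite repression, histidine, glutamate and pyrimidines 1 fall each. Without opi1 replicate 1 phosphoinositide metabolism had 0 rises, and histidine and nitrogen catabolite repression had 1 fall each. Without WT replicate 1 the falls were 0 under nitrogen catabolite repression and 1 each for phosphoinositides, the TCA cycle, histidine and pyrimidines, and without WT replicate 2 they were 4 in the TCA cycle, 3 for aromatic amino acids and 1 for phosphoinositides. Phosphoinositide metabolism had 0 rises in these last 2 leave-outs and on FPKM. Heat shock proteins had 1 rise without either opi1 replicate or WT replicate 1 and on FPKM, and aromatic amino acids had 0 falls in the same leave-outs. Autophagy had 6 of 33 genes higher and 0 lower, with ATG7 (1.04 ± 0.13), ATG22 (0.90 ± 0.13) and ATG27 (0.92 ± 0.12) called in every leave-out. Trehalose and glycogen genes had 4 of 17 higher, but 2 without opi1 replicate 2 or WT replicate 1 and on FPKM, with the glycogen synthase GSY1 at 661 and 715 CPM in opi1, against 215 and 343 CPM in WT (1.30 ± 0.18). Iron uptake had 3 of 20 lower, FET3 (-1.16 ± 0.14) and FTR1 (-0.86 ± 0.16) of the high-affinity system and FIT3 (-0.94 ± 0.15). Among antioxidant genes 2 of 26 rose and 3 fell, but 0 rose without either opi1 replicate or WT replicate 1, 1 without WT replicate 2 and 0 on FPKM, where 4 fell. YHB1, the flavohaemoglobin that detoxifies nitric oxide, had 40.7 and 56.2 CPM in opi1, against 225 and 128 CPM in WT (-1.86 ± 0.31, adjusted p = 7.20e-04). In the cell wall list FKS1, a glucan synthase, fell (-1.08 ± 0.21), with 2 of 25 higher and 4 lower; the 2 were 0 without opi1 replicate 2 or WT replicate 1. PHO84, the phosphate transporter, had 77.5 and 51.7 CPM in opi1, against 187 and 177 CPM in WT (-1.49 ± 0.24), in a list with 1 of 17 higher and 2 lower, which were 0 and 1 without opi1 replicate 2 or WT replicate 1, 1 and 1 without opi1 replicate 1 or WT replicate 2 and 0 and 2 on FPKM. Zinc genes had 0 of 9 called by edgeR, limma or DESeq2, and 2 with an unadjusted p under 0.05 by edgeR. Hexose transporters had 4 of 18 higher and 2 lower, but 1 and 0 without opi1 replicate 2, 1 and 1 without WT replicate 1, 1 fall without opi1 replicate 1 or WT replicate 2 and 1 and 3 on FPKM. HXT6 was among the higher (1.85 ± 0.24), and its reads may be shared with the near-identical HXT7 (0.71 ± 0.24).

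Single genes outside the lists were among the 20 largest changes in each direction. ICP55 (YER078C, chrV:316807-318342, minus strand), a mitochondrial aminopeptidase, had 117 and 138 CPM in opi1, against 30.2 and 23.9 CPM in WT (2.24 ± 0.16, adjusted p = 3.72e-07). YER078W-A, which starts beside it and runs the other way, had 7.73 and 9.22 CPM in opi1, against 1.05 and 0.855 CPM in WT (3.14 ± 0.40). YDL057W, of unknown function, had 60.8 and 62.5 CPM in opi1, against 10.5 and 12.9 CPM in WT (2.39 ± 0.16) and stood at 60.8 and 56.7 CPM in cho2. INA1 had 19.9 and 17.9 CPM in opi1, against 5.27 and 4.70 CPM in WT (1.92 ± 0.26). YDR278C, which overlaps a tRNA gene, had 32 counts over both opi1 libraries and 1 over both WT libraries, a ratio of 34.7 with a 95% counting interval of 5.80 to 1410. Falls outside the lists included those of FMO1, a thiol-oxidising monooxygenase, with 27.2 and 21.6 CPM in opi1, against 137 and 173 CPM in WT (-2.67 ± 0.21, 9.95e-07), and of TOS6, with 5.80 and 4.03 CPM in opi1, against 35.0 and 31.6 CPM in WT (-2.76 ± 0.29). YNL276C (-3.24 ± 0.41) fell as well, but it overlaps MET2 (-2.50 ± 0.35) on the other strand.

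Loss of OPI1 was next read in cells without SET2, where opi1set2 and set2 share no library with opi1 and WT. There 25.8% of genes were called, 13.5% higher and 12.3% lower. Of the 588 genes that rose in opi1, 297 (50.5%) also rose in opi1set2 and 23 (3.91%) fell. Of the 577 that fell, 221 (38.3%) also fell and 14 (2.43%) rose. As a share of the calls in opi1set2, 33.4% of those higher and 27.3% of those lower were called the same way in opi1. INO1 had 15908 and 11908 CPM in opi1set2 and 149.7 and 164 CPM in set2 (6.47 ± 0.24, adjusted p = 4.15e-10), and 16 of the 19 UAS-INO genes rose and 1 fell, the 1 being 0 without opi1set2 replicate 2 or either set2 replicate. CHO2 and STE4, which carry CATGTGAA and were not called in opi1, rose in opi1set2 by 0.86 and 0.49 (log2). STE4 lost its call in some of the leave-outs. The fall of the sulfur genes was found there too, with 9 of 10 genes of sulfate uptake and reduction lower at a median of -1.41. The total of 1699 calls was 819 without opi1set2 replicate 2, 762 without set2 replicate 1, 1125 without set2 replicate 2 and 2168 without opi1set2 replicate 1.

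The difference between the backgrounds was tested itself and was called for 5.47% of genes, 2.84% higher and 2.63% lower without SET2. Beta-oxidation genes went opposite ways, since 11 of 20 fell and 0 rose without SET2, and the difference was called in 12 genes, all lower. FOX2, the multifunctional enzyme of that cycle, had 4100.4 and 4406 CPM in opi1 and 2513 and 3021 CPM in WT (0.62 ± 0.16; adjusted p = 0.127 without opi1 replicate 2 and 0.147 without WT replicate 1), but 1130.5 and 959 CPM in opi1set2 and 2102 and 2300.1 CPM in set2 (-1.07 ± 0.16). The difference was -1.69 ± 0.22 (adjusted p = 0.00198) and stayed called in all 8 leave-outs, as did those of IDP3 (-1.54 ± 0.21) and DCI1 (-1.51 ± 0.20). Over the list it was called in 8 to 14 genes with 1 of the 8 libraries left out. ADY2, which rose in opi1, had 767 and 769 CPM in opi1set2 and 1115 and 891 CPM in set2 (-0.39 ± 0.18; difference -2.48 ± 0.25, adjusted p = 2.42e-04), and the lactate permease JEN1 had 2459 and 2457 CPM in opi1set2 and 4789 and 4413 CPM in set2 (difference -1.65 ± 0.23, 0.00198).

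In sterol synthesis 7 genes differed, all with a higher log2 change in cells without SET2. ERG5 had 609 and 475 CPM in opi1set2 and 426 and 333 CPM in set2 (0.51 ± 0.15; difference 1.46 ± 0.21, adjusted p = 0.00231), and the 7 ran from 1 to 8 with 1 library left out. HTA2 fell in both backgrounds but less without SET2, where it had 65.0 and 88.9 CPM in opi1set2 and 138 and 163 CPM in set2 (-0.97 ± 0.15; difference 1.50 ± 0.22, 0.00235). SHM2 fell less there too, with 683 and 657 CPM in opi1set2 and 1035 and 997 CPM in set2 (difference 1.54 ± 0.22, 0.00215). JLP1 fell further, with 18.7 and 21.6 CPM in opi1set2 and 315 and 417 CPM in set2 (difference -1.73 ± 0.27, 0.00426). Starting levels differed as well. JLP1 stood higher in set2 than in WT and at like levels in opi1set2 and opi1, and HTA2 stood lower in set2 than in WT. Of the sulfate genes 3 of 10 differed, all with a smaller fall, and 0 to 5 did so with 1 of the 8 libraries left out and 9 without the library labelled cho2set2 replicate 1. The total of 360 genes was 76 without opi1 replicate 1, 44 without opi1 replicate 2, 76 without WT replicate 1 and 608 without WT replicate 2. It was 1145 without opi1set2 replicate 1, 129 without opi1set2 replicate 2, 54 without set2 replicate 1 and 131 without set2 replicate 2.

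**Figure D5:**
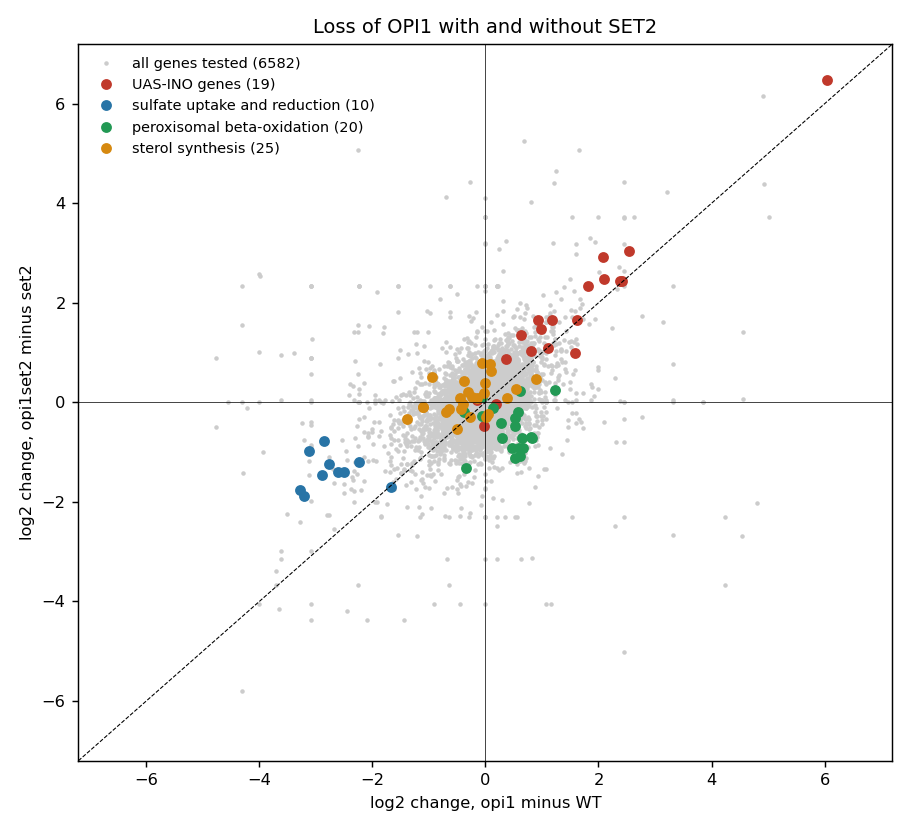
Log2 change with OPI1 loss in cells with SET2 (opi1 minus WT, x axis) and without it (opi1set2 minus set2, y axis) for 6582 genes, with 4 lists coloured and a dashed line where both are equal. The UAS-INO genes lie mainly at the upper right, the sulfate genes at the lower left above the line, and most beta-oxidation genes right of 0 and below 0; grey points far out in rows are genes with few counts.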

How the data were processed

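The table that the authors deposited gives whole-number counts of 7126 genes in each library, neither normalised nor pooled, beside FPKM, which matched a recomputation from counts, exonic length and column totals within 0.005. The submitters' processing notes name cutadapt 1.9.1, HISAT2 2.0.1, HTSeq 0.6.1 and build sacCer3, with no roles, settings or strand setting. The 12 libraries fell into 6 genotypes of 2 by the labels.

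Counts of 6583 genes (FPKM of at least 1 in at least 2 libraries) were fitted with the quasi-likelihood test of edgeR 4.0.16, with TMM scaling (factors 0.926 and 0.897 in opi1, 1.026 and 0.989 in WT), 1 mean per genotype and no covariate. This left 6 residual degrees of freedom, and the common dispersion corresponded to a coefficient of variation of 0.12. P-values were 2-sided and Benjamini-Hochberg adjusted over all genes, with calls at 0.05; OPI1 was left out of counts. Gene log2 changes are given ± SE (size over the square root of F), with 2 libraries in each group, and an adjusted p in parentheses after one belongs to it. An exact permutation test of 2 against 2 libraries is too small to pass 0.05 for a single gene. Replicates differed by more than counting noise (chi-square per degree of freedom 8.17 to 25.9). The fit was tested on simulated counts.

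Members and the 47 gene lists were chosen with earlier results of these data known. Named were the phospholipid and fatty acid lists, neighbours of OPI1, up to 6 called members of each other list with the largest changes (all members of lists of 12 or fewer) and the 20 largest rises and falls with non-overlapping groups and a mean FPKM of at least 5; the text gives a choice. Genes with the 5 largest rises and 5 largest falls of the difference between backgrounds were named too. For these the mean FPKM was at least 5 in any of the compared groups. Uncalled members of larger lists, and called ones beyond 6, were added after their values were seen. Promoters were 300 bases before the start codon in the RefSeq S288C genome, for 6570 genes. Alternatives were limma 3.58.1 on log2(FPKM + 1), DESeq2 1.42.0, median-of-ratios scaling and no filter on low values. Others were a replicate block and the 4 opi1 and WT libraries alone. Each opi1, WT, opi1set2, set2 and cho2 library was also left out in turn, for the comparisons that used its group. The library labelled cho2set2 replicate 1 was left out for all comparisons. R 4.3.3 and Python 3.11.15 were used.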

Additional observations from a re-analysis of the deposited data

Results flagged for a closer look

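For 51 genes named above, the change with OPI1 loss differed between cells without and with SET2, by a test of the difference itself (log2 change in opi1set2 against set2 minus that in opi1 against WT, ± SE, adjusted p < 0.05 by edgeR). Over all genes 5.47% were called in this way. The 51 come from 187 genes named in the text, some of which were named for the size of this difference. Their share is therefore no independent result. The difference is the value after each symbol. Those that held with each of the 8 libraries left out in turn are given first.

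In transport and peroxisomal use of carbon the change with OPI1 loss was lower without SET2 for ADY2 (-2.48 ± 0.25), JEN1 (-1.65 ± 0.23), FOX2 (-1.69 ± 0.22), IDP3 (-1.54 ± 0.21) and DCI1 (-1.51 ± 0.20). The same held for YDL057W (-2.37 ± 0.22) and the sulfonate dioxygenase gene JLP1 (-1.73 ± 0.27). YDL057W had 39.8 and 48.5 CPM in opi1set2 and 45.7 and 41.4 CPM in set2. The levels of YDL057W and JLP1 in set2 lay above those in WT. The change was higher without SET2 for the nitric oxide defence gene YHB1 (2.62 ± 0.42), the ATP synthase subunit gene ATP20 (1.66 ± 0.24), SHM2 (1.54 ± 0.22), HTA2 (1.50 ± 0.22) and ERG5 (1.46 ± 0.21). YHB1 had 663 and 817 CPM in opi1set2 and 488 and 385 CPM in set2.

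The remaining differences lost their call with at least 1 library left out. Among lipid genes they were those of OPI3 (0.85 ± 0.21), ACC1 (0.73 ± 0.18), FAS2 (0.73 ± 0.19), FAA1 (-1.09 ± 0.23), FAA4 (-0.70 ± 0.19), PGS1 (-0.92 ± 0.23), ECI1 (-0.99 ± 0.20), YEH1 (1.59 ± 0.41), ERG3 (1.05 ± 0.19), ERG4 (1.00 ± 0.21) and ERG11 (1.02 ± 0.22). OPI3 was called in 1 of the 8 leave-outs. Sulfur and one-carbon genes fell less without SET2 at MET14 (2.15 ± 0.47), MET16 (2.10 ± 0.45), SUL1 (1.53 ± 0.32), MUP1 (2.45 ± 0.46), CYS3 (1.96 ± 0.40), SAM1 (1.67 ± 0.40), MET32 (1.47 ± 0.36) and SER33 (1.37 ± 0.30), while ADO1 (0.69 ± 0.19) rose more. YNL276C (2.82 ± 0.54) overlaps MET2. Other amino acid and nucleotide genes were GDH1 (1.38 ± 0.26) and ADE12 (0.62 ± 0.16).

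Cell cycle genes in this set were HTB2 (1.12 ± 0.20), HHF2 (1.06 ± 0.20), HHF1 (0.89 ± 0.20), PCL1 (1.66 ± 0.29), CLB6 (1.94 ± 0.41) and CDC45 (1.18 ± 0.31). Carbon genes were PDC1 (1.35 ± 0.27), PDC5 (-1.09 ± 0.25), TDH2 (1.44 ± 0.28), HXT6 (1.45 ± 0.33) and CYC1 (1.63 ± 0.29). The others were INA1 (-1.79 ± 0.34), AIM17 (-1.09 ± 0.25) and SPO11 (1.01 ± 0.22) beside OPI1, and the mating genes MFA1 (0.87 ± 0.23) and STE3 (3.22 ± 0.87). STE3 had 2.97 and 3.24 CPM in opi1set2 and 0.234 and 0.117 CPM in set2, which are a few counts, and overlaps YKL177W.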

How the results depend on the processing

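The count of genes called in opi1 against WT was 1001 with limma on FPKM, 1239 with DESeq2, 1168 with median-of-ratios scaling, 1147 without the filter, 1360 from the opi1 and WT libraries alone and 1166 without the library labelled cho2set2 replicate 1. With 1 library left out it ran from 448 to 1093, and from 762 to 2168 in opi1set2 against set2 (1699 with all), 44 to 1145 for the difference between backgrounds (360) and 167 to 602 in opi1 against cho2 (580), the 602 without the cho2set2 library. On FPKM with limma the difference between backgrounds was called in 91 genes, 63.7% of them higher against 51.9% on counts, and opi1 against cho2 in 382. DESeq2 called 629 genes for the difference. For these counts the cause was not tested, beyond the smaller number of samples in the leave-outs. Under the replicate block the counts were 1085, 1588, 269 and 544 in the same order, and of the genes named in the text MFA1 (adjusted p = 0.0604) and KAR2 (0.0622) lost their calls. The replicate numbers did not pair the libraries, since the correlation of deviations over 15 pairs of genotypes ran from -0.257 to 0.265. Of the 126 genes named in the text and called in opi1 against WT, 112 were called under every alternative, each opi1 or WT library left out among them, and 0 changed direction. DESeq2 gave an adjusted p for 125 of those 126. Many of these genes were named for their large changes, so they do not stand for all called genes. Of the latter a smaller share was called in every leave-out, as given above. With 2 libraries a genotype, a gene that was not called may still have changed. CLB6, MF(ALPHA)1 and YDR278C rest on few counts in the lower group.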
